A study of Homo sapiens with 24 samples.

Results

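The genes described are 10 regulators of red cell and platelet formation, HEMGN, SLFN14, GATA1, ZFPM1, NFE2, GFI1B, TAL1, LYL1, LMO2 and BCL11A. They were picked by symbol from a gene list, so 10 of the 25728 symbols in the count tables were members, and all 10 were among the 14588 genes tested after the filter on low counts. Each member would also have passed that filter on the 4 libraries of any 1 group. The list was drawn up with the response of HEMGN and its companions to the drug already known, so their drug responses are given as a description, without p-values. RNA had been sequenced from 3 human acute myeloid leukaemia lines, which are TF-1, the UT-7 line and UCSD-AML1, kept for 24 hours with 3 mM cyclocreatine or with vehicle, in 4 libraries a group and 24 in all. Cyclocreatine is a creatine analogue that creatine kinase phosphorylates, and the series title names the creatine kinase pathway in leukaemia positive for EVI1, the transcription factor encoded by MECOM. All 3 lines are established cultures, each a single leukaemia, and no label tells if a group's 4 libraries are separate cultures, so p-values measure the spread between these libraries, which may be technical.

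These genes act at successive layers of 1 circuit. GATA1 binds GATA sites in erythroid and megakaryocyte genes together with its cofactor FOG1, the product of ZFPM1, and on many of the same elements TAL1 or its relative LYL1 pairs with an E protein and is joined to GATA factors through LMO2 and LDB1. NFE2 encodes the large subunit of NF-E2, which needs a small MAF partner and drives globin and platelet genes, while GFI1B is a repressor that recruits histone demethylase and deacetylase complexes, and BCL11A is a repressor of the fetal globin genes. HEMGN encodes hemogen, a nuclear protein of blood progenitors and erythroid precursors that is a known GATA1 target, and SLFN14 encodes a ribosome-associated endoribonuclease whose inherited variants cause a bleeding disorder with low platelets.

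The DNA just before the transcript start is shown for the 5 member windows that held a GATA match, those of HEMGN, GFI1B, TAL1 and LYL1, since GATA letters are what GATA1 is known to bind. RefSeq windows (GRCh38.p14) were found for 7 of the 10 members, at 14 starts, and not for SLFN14, NFE2 and LMO2, and each window was cut to the 250 bases before the start. A GATA match was AGATAA or the same letters ending in G (AGATAG). Matches starting with T were also taken, namely TGATAA and its form ending in G, TGATAG. Both strands were searched, and capitals mark each match. Sequences run 5′ to 3′ on the strand of the gene.
HEMGN start 1 (chr9:97944853-97945102, minus strand): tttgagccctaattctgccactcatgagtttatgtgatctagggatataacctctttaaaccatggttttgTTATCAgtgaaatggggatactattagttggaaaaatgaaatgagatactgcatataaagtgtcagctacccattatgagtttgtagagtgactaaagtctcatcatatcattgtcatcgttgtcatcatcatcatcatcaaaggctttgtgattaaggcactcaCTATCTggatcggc
HEMGN start 2 (chr9:97938173-97938422, minus strand): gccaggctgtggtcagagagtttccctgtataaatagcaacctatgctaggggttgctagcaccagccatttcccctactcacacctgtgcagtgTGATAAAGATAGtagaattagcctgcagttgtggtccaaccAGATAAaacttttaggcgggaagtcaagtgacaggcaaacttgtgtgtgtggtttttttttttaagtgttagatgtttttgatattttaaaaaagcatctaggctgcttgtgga
GFI1B start 2 (chr9:132978444-132978693, plus strand): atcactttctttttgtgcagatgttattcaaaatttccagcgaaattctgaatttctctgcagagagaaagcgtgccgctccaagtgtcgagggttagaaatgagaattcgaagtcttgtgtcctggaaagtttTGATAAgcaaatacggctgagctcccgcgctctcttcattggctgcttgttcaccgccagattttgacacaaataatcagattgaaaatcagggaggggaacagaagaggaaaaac
TAL1 start 1 (chr1:47232336-47232585, minus strand): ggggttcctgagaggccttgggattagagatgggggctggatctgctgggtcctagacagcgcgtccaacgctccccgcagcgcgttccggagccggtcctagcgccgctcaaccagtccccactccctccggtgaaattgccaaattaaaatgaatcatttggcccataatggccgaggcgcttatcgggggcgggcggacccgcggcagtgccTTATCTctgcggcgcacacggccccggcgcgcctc
LYL1 start 1 (chr19:13102859-13103108, minus strand): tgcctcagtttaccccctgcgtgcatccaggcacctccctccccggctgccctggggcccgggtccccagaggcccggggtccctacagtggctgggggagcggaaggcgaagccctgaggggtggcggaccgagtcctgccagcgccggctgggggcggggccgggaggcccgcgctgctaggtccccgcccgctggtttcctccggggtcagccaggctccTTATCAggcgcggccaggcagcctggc

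At HEMGN start 2 there were 3 matches, TGATAA at bases 155 to 150 before the start, AGATAG directly after it at 149 to 144, and AGATAA at 114 to 109. HEMGN start 1 held 2 matches on the other strand, at bases 179 to 174 and 14 to 9 before the start. GFI1B start 2, TAL1 start 1 and LYL1 start 1 held 1 match each. The remaining 9 windows of members, among them GFI1B start 1, TAL1 start 2 and the only windows of GATA1 and ZFPM1, held none. Of all 35116 RefSeq windows of this length, 22.3% held at least 1 match, 4.96% at least 2 and 0.94% at least 3. The letters TGANTCA, with any base at N, are looser than the core TGA(C/G)TCA shared by NF-E2 and AP-1 sites. They stood in 6.57% of all windows and at bases 98 to 92 before TAL1 start 1. There they read TGAATCA, which is not that stricter core. A match of letters is a description of the sequence and does not show binding in these cells.

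**Figure D1:**
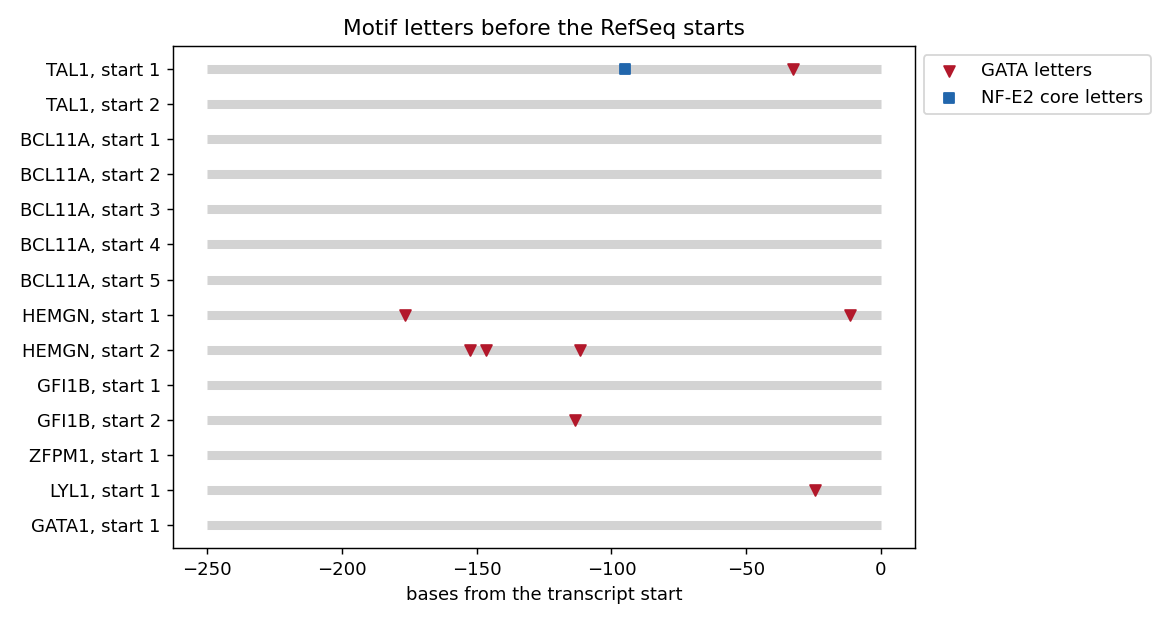
Matches to GATA letters (triangles) and to the loose letters TGANTCA (square, labelled NF-E2 core) in the 250 bases before each of 14 RefSeq starts of 7 members. The x axis gives the distance from the start in bases. HEMGN carries 5 of the 8 GATA matches, over both of its starts.

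The 24 libraries held 12794998 to 21200662 counts, and values below are CPM, counts scaled to a common library size with TMM factors. The first TF-1 cyclocreatine library stood apart from the other 3 of its group: it lay at 38.26 on the second component of the TF-1 libraries, which held 13% of the variance, against -20.56 to -10.48 for the others, and 9.35% of its counts were on ribosomal protein genes, against 7.75% to 7.79%. Several values below are therefore also given without it. MECOM averaged 412.2 CPM in UCSD-AML1 vehicle libraries, 13.03 CPM in TF-1 and 6.34 CPM in UT-7, although the submitters describe all 3 lines as driven by EVI1. Of 42 erythroid genes used as markers, 42 had counts in TF-1 and in UT-7 vehicle libraries and 33 in UCSD-AML1 vehicle libraries, where those at 0 included HBA1, HBA2, HBB, HBZ, AHSP, XK and ALAS2. CD34, a progenitor marker, averaged 241.6 CPM in TF-1, 2.19 CPM in UT-7 and 584.3 CPM in UCSD-AML1 vehicle libraries. The summed level of 15 granulocyte and monocyte markers ran from 220.5 to 229.4 CPM in cyclocreatine and 185.1 to 189.9 CPM in vehicle libraries of TF-1, from 96.5 to 100.6 CPM with cyclocreatine and 95.9 to 103.8 CPM with vehicle in UT-7, and from 491.7 to 503.3 CPM with cyclocreatine and 476.9 to 495.7 CPM with vehicle in UCSD-AML1, with 11 to 13 of the 15 detected in a group and S100A8 at 0 in all but UT-7 vehicle libraries. That of 12 lymphoid markers ran from 4.69 to 24.4 CPM in TF-1 and UT-7 and from 201.1 to 211.6 CPM in UCSD-AML1, with MS4A1 at 0 in every group, and that of 12 stromal and epithelial markers from 65.1 to 440.6 CPM. Ribosomal protein genes took 6.41% to 9.35% of the counts in cyclocreatine and 5.49% to 6.02% in vehicle libraries. The part of these shifts in the results below was not tested.

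The first question was how the members stood in the lines before the drug, a contrast that the choice of members did not use. UT-7 had the highest levels of GATA1, NFE2, TAL1, LYL1 and SLFN14, and UCSD-AML1 had the highest HEMGN, GFI1B and BCL11A with the lowest GATA1. At an edgeR adjusted p below 0.05, 8 of the 10 members differed between TF-1 and UT-7, 3 of them higher and 5 lower in TF-1, where 79.7% of all genes tested did, 41% higher and 38.7% lower. Between TF-1 and UCSD-AML1 10 of 10 differed, 6 higher and 4 lower in TF-1, beside 84% of all genes, 40.6% higher and 43.3% lower. Between UT-7 and UCSD-AML1 10 of 10 differed, 6 higher and 4 lower in UT-7, beside 81.5% of all genes, 40% higher and 41.5% lower. The member counts are near those shares.

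GATA1 had 149.8, 149.8, 146.7 and 157.5 CPM in TF-1 vehicle libraries, 259.4, 271.2, 274.1 and 262.2 CPM in UT-7, and 21.9, 21.96, 19.9 and 20.2 CPM in UCSD-AML1. The 3 lines did not overlap, and UT-7 exceeded UCSD-AML1 by 12.7-fold (log2 difference 3.66 ± 0.05, SE; edgeR adjusted p = 7.38e-39). BCL11A ran the other way: UT-7 libraries had 1.83, 1.59, 1.21 and 1.19 CPM, from 16 to 26 counts each, while UCSD-AML1 libraries had 56.4, 57.7, 64.9 and 56.8 CPM. That is a difference of 40.3-fold, with UT-7 lower (log2 difference -5.33 ± 0.11; edgeR adjusted p = 2.85e-33), and TF-1 lay between them at 8.27 ± 1.06 CPM (SD, n = 4). HEMGN averaged 43.3 ± 2.14 CPM in TF-1, 22.6 ± 1.03 CPM in UT-7 and 75.3 ± 1.51 CPM in UCSD-AML1 (SD, n = 4 each). UT-7 was 3.34-fold below UCSD-AML1 for HEMGN (edgeR adjusted p = 1.73e-25). The line with the most GATA1 RNA had the least HEMGN RNA, and a link between these genes was not tested.

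SLFN14 averaged 12.2 ± 2.20 CPM in TF-1, 22.9 ± 2.29 CPM in UT-7 and 7.0403 ± 1.1997 CPM in UCSD-AML1, and each of these lines differed from the next, the smallest step being 1.72-fold between TF-1 and UCSD-AML1 (edgeR adjusted p = 3.14e-06). TAL1, NFE2 and LYL1 were each highest in UT-7, which exceeded UCSD-AML1 by 3.25-fold, 3.71-fold and 2.02-fold (edgeR adjusted p from 2.13e-34 to 2.94e-15). GFI1B averaged 119.9 ± 6.45 CPM in TF-1 and 126.4 ± 5.21 CPM in UT-7, which overlapped (edgeR adjusted p = 0.0941), and 230.5 ± 8.12 CPM in UCSD-AML1, above UT-7 by 1.82-fold. For GFI1B the TF-1 and UT-7 difference passed the threshold without TF-1 vehicle replicate 4 (edgeR adjusted p = 0.02) and without UT-7 vehicle replicate 1 (0.0421). LMO2 was the most even of the 10, at 168.5 ± 8.35 CPM in TF-1, 167.1 ± 5.39 CPM in UT-7 and 136.3 ± 3.66 CPM in UCSD-AML1. ZFPM1 was highest in TF-1, at 78.1 ± 2.03 CPM, against 49.98 ± 2.91 CPM in UT-7 (1.56-fold, edgeR adjusted p = 1.1e-12) and 59.5 ± 2.44 CPM in UCSD-AML1 (1.31-fold, edgeR adjusted p = 8.33e-08).

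Levels of different genes were compared only per kilobase of exon, with exon lengths from GENCODE release 29 on GRCh38, a newer build than the files used. The length joined the exons of all transcripts of a gene, and was 1.5 kb for GATA1, 6.104 kb for GFI1B and 25.422 kb for BCL11A. Genes with much exon outside their main transcript come out too low, so the order below holds for this scale only. On that scale GATA1 led the members in UT-7 vehicle libraries with 177.8 CPM per kb, followed by NFE2 with 149.7, TAL1 with 147.5 and LYL1 with 114 CPM per kb. The SDs of NFE2 and TAL1 were 1.3 and 1.64 CPM per kb, so their ranges of mean ± SD overlapped. In UCSD-AML1 vehicle libraries LYL1 led with 56.5 CPM per kb, and GATA1 stood at 14, below HEMGN at 31.4 CPM per kb. SLFN14 was low in every line, at 4.21 CPM per kb for TF-1, 7.93 for UT-7 and 2.44 for UCSD-AML1.

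**Figure D2:**
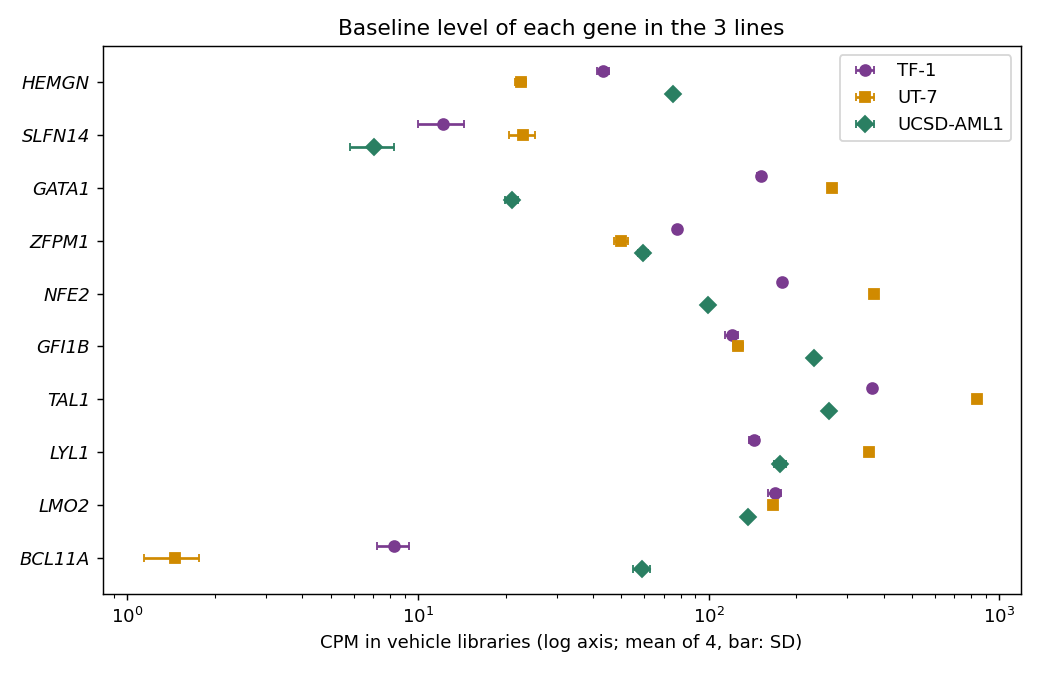
Mean CPM of each member in the vehicle libraries of TF-1, UT-7 and UCSD-AML1 on a log axis (bar: SD over 4 libraries; bars narrower than the marker are hidden). GATA1 and BCL11A spread most between the lines, with GATA1 at 266.7 CPM in UT-7 and 21.0 CPM in UCSD-AML1, while LMO2 lies between 136.3 and 168.5 CPM in all 3.

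With cyclocreatine, HEMGN, SLFN14, GFI1B and TAL1 were lower in all 3 lines, in the sense that all 4 cyclocreatine libraries lay below all 4 vehicle libraries of the line. In that sense 5 of 10 members were lower and 1 higher in TF-1, 7 lower and 1 higher in UT-7, and 5 lower and 4 higher in UCSD-AML1. Over all genes tested, the cyclocreatine libraries lay apart and lower for 21% for TF-1, 24.1% for UT-7 and 23.1% for UCSD-AML1, apart and higher for 19.3%, 23.3% and 21.1%, and in all 3 lines apart and lower for 7.59% and apart and higher for 7.64%; 0 members were higher in all 3. The members were picked with these contrasts known, so nothing is read from the counts. The median log2 fold change of the 10 was -0.13 for TF-1, -0.28 for UT-7 and 0.03 for UCSD-AML1, beside -0.01, 0 and -0.005 for all genes tested. In bulk RNA, fewer cells of a type and less RNA per cell cannot be told apart.

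HEMGN, the nuclear GATA1 target, had 20.6, 22.9, 25.8 and 20.9 CPM in TF-1 cyclocreatine libraries and 41.1, 41.9, 44.7 and 45.5 CPM in vehicle libraries. In UT-7 it had 5.04, 5.71, 4.69 and 5.83 CPM with cyclocreatine and 22.4, 23.7, 21.3 and 22.8 CPM with vehicle. In UCSD-AML1 it had 45.9, 42.0, 44.1 and 46.7 CPM with cyclocreatine and 76.2, 74.5, 73.5 and 76.9 CPM with vehicle. The groups were apart in every line, and the UCSD-AML1 cyclocreatine libraries overlapped the vehicle libraries of TF-1. Fold changes were 1.93-fold lower in TF-1 (log2 -0.95 ± 0.06, SE), 4.24-fold lower in UT-7 (log2 -2.08 ± 0.09) and 1.69-fold lower in UCSD-AML1 (log2 -0.75 ± 0.06). The log2 change in UT-7 was 1.33 ± 0.11 below that in UCSD-AML1 and the change in TF-1 was 1.13 ± 0.11 above that in UT-7. Among the 9936 genes that averaged 5 CPM or more over the UT-7 libraries, HEMGN had rank 1 from the lowest fold change, and it had rank 231 of 10371 in TF-1 and 120 of 10196 in UCSD-AML1.

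SLFN14, the platelet-disorder ribonuclease, had 1.27, 3.22, 2.71 and 2.70 CPM in TF-1 cyclocreatine libraries, against 12.7, 14.99, 9.95 and 11.02 CPM in vehicle libraries. In UT-7 it had 6.34, 6.48, 7.21 and 7.96 CPM with cyclocreatine and 22.8, 21.1, 21.6 and 26.2 CPM with vehicle. In UCSD-AML1 it had 1.84, 1.49, 1.94 and 1.74 CPM with cyclocreatine, from 24 to 30 counts each, and 7.39, 8.57, 6.28 and 5.92 CPM with vehicle, from 89 to 137 counts. No cyclocreatine library reached a vehicle library of its line. The differences were 4.91-fold in TF-1 (log2 -2.29 ± 0.17), 3.26-fold in UT-7 (log2 -1.71 ± 0.13) and 4.02-fold in UCSD-AML1 (log2 -2.01 ± 0.19), all lower with the drug. The lowest value, 1.27 CPM, was in the TF-1 library that stood apart, and without that library the TF-1 difference was 4.23-fold. SLFN14 ranked 2 from the lowest fold change of 10371 genes in TF-1 and 6 of 9936 in UT-7, and it lay under the 5 CPM limit in UCSD-AML1. An antisense RNA overlaps 12% of its exon bases in GENCODE release 29, and the sources used here do not give whether counting used strand.

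GATA1 itself differed little between treatments where it was abundant. It had 167.8, 141, 152.4 and 148.4 CPM in TF-1 cyclocreatine libraries, against 149.8, 149.8, 146.7 and 157.5 CPM in vehicle libraries, which overlapped. In UT-7 it had 259, 241.2, 227.9 and 247 CPM with cyclocreatine and 259.4, 271.2, 274.1 and 262.2 CPM with vehicle, so the groups were apart only by the gap between 259 and 259.4 CPM. In UCSD-AML1 it had 15.9, 17.3, 16.9 and 16.2 CPM with cyclocreatine and 21.9, 21.96, 19.9 and 20.2 CPM with vehicle. The log2 fold changes were 0.01 ± 0.04 for TF-1, -0.13 ± 0.04 for UT-7 and -0.34 ± 0.07 for UCSD-AML1, and the sign in TF-1 turned with DESeq2 size factors (-0.004), with library totals (-0.07) and without the TF-1 library that stood apart (-0.03). HEMGN was 1.93-fold lower in TF-1, where GATA1 RNA overlapped between the groups. Only RNA was measured, and a link between these genes was not tested.

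ZFPM1, which encodes the GATA1 cofactor FOG1, differed in direction between the lines. It had 57.0, 46.5, 53.5 and 55.3 CPM in TF-1 cyclocreatine libraries and 76.2, 76.5, 80.0 and 79.7 CPM in vehicle libraries. UT-7 had 33.5, 28.1, 32.4 and 34.8 CPM with cyclocreatine, against 49.1, 52.6, 51.9 and 46.2 CPM with vehicle. In UCSD-AML1 the order turned, with 80.9, 86.7, 76.1 and 81.6 CPM with cyclocreatine and 62.9, 58.8, 57.0 and 59.2 CPM with vehicle. The log2 fold changes were -0.56 ± 0.06 for TF-1, -0.63 ± 0.06 for UT-7 and 0.45 ± 0.06 for UCSD-AML1, without overlap in any line. The log2 change in TF-1 was 1.01 ± 0.08 below that in UCSD-AML1, and the change in UT-7 was 1.08 ± 0.09 below it.

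GFI1B, the repressor, had 97.0, 91.4, 89.0 and 89.0 CPM in TF-1 cyclocreatine libraries and 120.9, 115.8, 114.3 and 128.6 CPM in vehicle libraries. UT-7 had 70.8, 66.2, 67.3 and 69.5 CPM with cyclocreatine and 120.4, 131.1, 130.3 and 123.6 CPM with vehicle. UCSD-AML1 had 187.4, 179.5, 185.9 and 185.4 CPM with cyclocreatine and 229.9, 241.9, 222.9 and 227.5 CPM with vehicle. All groups were apart, and UT-7 had the largest of the 3 differences at 1.85-fold lower (log2 -0.88 ± 0.04), beside log2 -0.39 ± 0.04 in TF-1 and -0.32 ± 0.04 in UCSD-AML1. The neighbouring gene TSC1, on the opposite strand, shares 5.7% of the exon bases of GFI1B.

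NFE2, the large NF-E2 subunit, had 198.9, 174.9, 176.6 and 186.9 CPM in TF-1 cyclocreatine libraries and 177.6, 184.7, 176.8 and 176.6 CPM in vehicle libraries, which overlapped. In UT-7 it had 312.8, 301.8, 294.3 and 298.4 CPM with cyclocreatine, all below the 372.1, 369.6, 371.7 and 365.1 CPM with vehicle (log2 -0.29 ± 0.04). In UCSD-AML1 it had 107, 103.9, 110.8 and 107.7 CPM with cyclocreatine, all above the 100.2, 100.1, 96.0 and 101.9 CPM with vehicle (log2 0.11 ± 0.04). NFE2 thus lay on opposite sides in UT-7 and UCSD-AML1, with a log2 difference between these changes of -0.40 ± 0.05, UT-7 minus UCSD-AML1.

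TAL1, the E-box factor of the complex, had 282.5, 292.7, 305.1 and 325.2 CPM in TF-1 cyclocreatine libraries and 362.6, 366.9, 371.1 and 363.1 CPM in vehicle libraries. UT-7 libraries had 700.7, 690.4, 721.3 and 692.2 CPM with cyclocreatine, against 840.6, 828.6, 851.5 and 842 CPM with vehicle. UCSD-AML1 libraries had 250.5, 250.3, 246.1 and 251.5 CPM with cyclocreatine and 257.2, 265, 256.1 and 257.3 CPM with vehicle. All 3 lines were apart, but the sizes differed, with log2 -0.28 ± 0.03 for TF-1, -0.26 ± 0.03 for UT-7 and -0.05 ± 0.03 for UCSD-AML1. An antisense RNA overlaps 14.8% of the exon bases of TAL1.

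LYL1, the relative of TAL1 that can take its place beside LMO2, was higher in 2 lines. It had 254.7, 188.7, 200 and 203 CPM in TF-1 cyclocreatine libraries and 134.4, 144.9, 147.9 and 146 CPM in vehicle libraries (log2 0.56 ± 0.06), and without the first of these cyclocreatine libraries, the one that stood apart, the difference was 1.38-fold. In UCSD-AML1 it had 203.5, 202.5, 213.1 and 218.5 CPM with cyclocreatine and 182.8, 180.6, 163.6 and 178.2 CPM with vehicle (log2 0.25 ± 0.06). In UT-7 the groups overlapped, at 353.2, 340.5, 310.2 and 342.8 CPM with cyclocreatine and 354.1, 362, 362.2 and 343.4 CPM with vehicle (log2 -0.08 ± 0.06). The count of LYL1 over that of TAL1 within a library, a ratio chosen after the values were seen, averaged 0.71 in cyclocreatine libraries of TF-1 (range 0.624 to 0.902) and 0.39 in vehicle libraries (range 0.371 to 0.402). The same ratio averaged 0.48 in cyclocreatine and 0.42 in vehicle libraries of UT-7, with overlap, and 0.84 in cyclocreatine and 0.68 in vehicle libraries of UCSD-AML1, without.

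LMO2, the bridging protein, had 209, 169.8, 180.3 and 184.8 CPM in TF-1 cyclocreatine libraries and 170.4, 179.5, 162.8 and 161.3 CPM in vehicle libraries, which overlapped. It averaged 186 ± 5.997 CPM with cyclocreatine and 167.1 ± 5.39 CPM with vehicle in UT-7, and 147.8 ± 6.32 CPM with cyclocreatine and 136.3 ± 3.66 CPM with vehicle in UCSD-AML1, apart in both. Its log2 fold changes were 0.14 for TF-1, 0.15 for UT-7 and 0.12 for UCSD-AML1 (SE 0.05 each), and without the TF-1 library that stood apart, which held the 209 CPM, the TF-1 value was 0.085. BCL11A, the globin repressor, averaged 8.79 ± 0.27 CPM with cyclocreatine and 8.27 ± 1.06 CPM with vehicle in TF-1, 1.62 ± 0.49 CPM with cyclocreatine and 1.45 ± 0.31 CPM with vehicle in UT-7, and 65.3 ± 1.39 CPM with cyclocreatine and 59.0 ± 4.01 CPM with vehicle in UCSD-AML1 (SD, n = 4 each). It overlapped in all 3 lines. In UT-7 a library held only 15 to 29 counts of BCL11A, and the SE of its log2 fold change there, 0.22, was close to the whole TAL1 difference of -0.26.

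**Figure D3:**
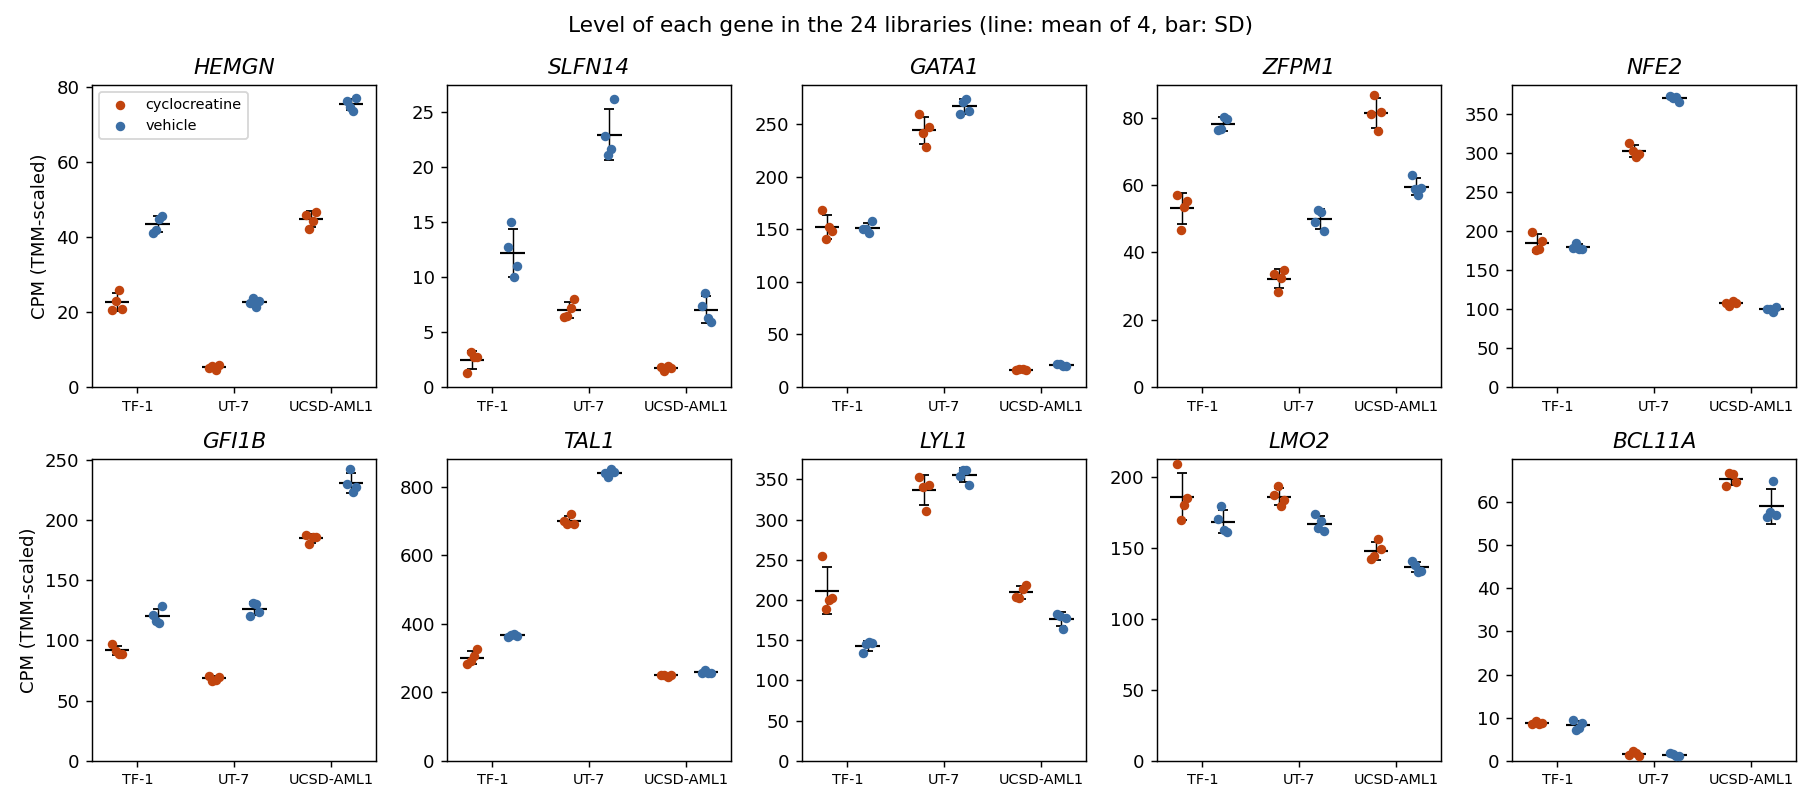
CPM of each member in all 24 libraries, with cyclocreatine (orange) left of vehicle (blue) in each line; the line is the mean and the bar the SD of 4 libraries. HEMGN, SLFN14, GFI1B and TAL1 lie lower with cyclocreatine in all 3 lines, and ZFPM1 turns over in UCSD-AML1.

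**Figure D4:**
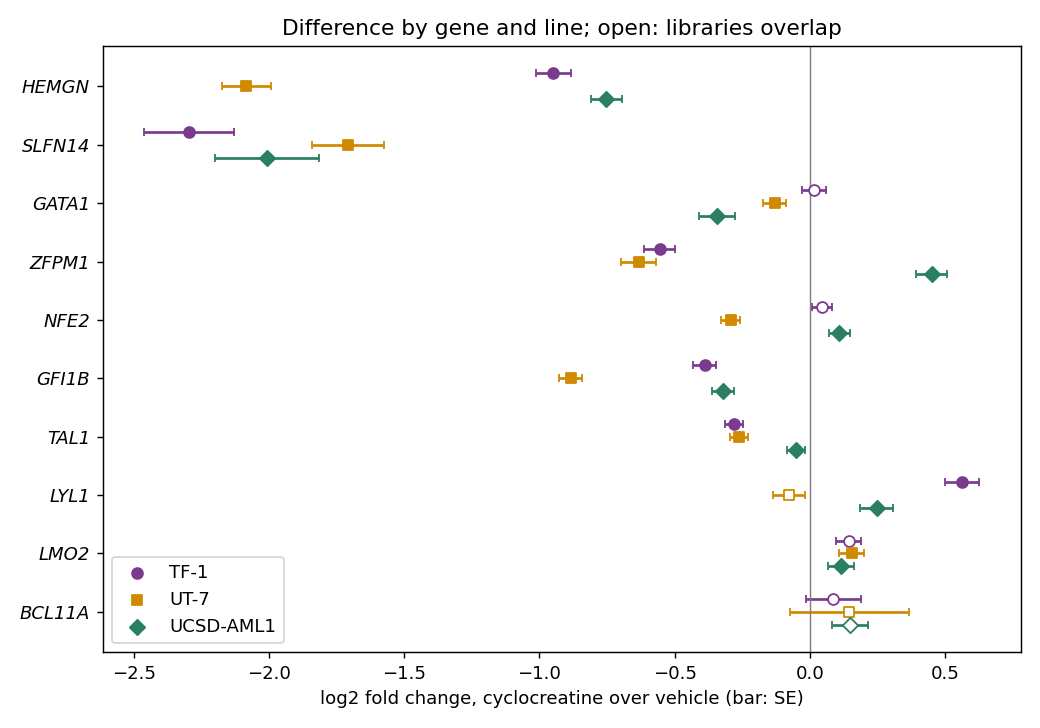
Log2 fold change of cyclocreatine over vehicle for each member and line (bar: SE from the fit over all 24 libraries); open markers are those whose 8 libraries overlap. SLFN14 and HEMGN reach the lowest values, -2.29 in TF-1 and -2.08 in UT-7, and the 3 BCL11A markers are all open.

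Genes beside the 10 members were taken from lists of the circuit, which hold none of them. These lists too were drawn up with earlier results of these data known, and no list has a test of its own. Their counts and medians are therefore a description, and the adjusted p-values are those of single genes among all genes tested. Over the 119 list genes tested, 90 changed in TF-1 (36 rose and 54 fell), 72 in UT-7 (18 rose and 54 fell) and 58 in UCSD-AML1 (23 rose and 35 fell) at an edgeR adjusted p below 0.05. Of all 14588 genes, 56% changed in TF-1 (26.7% rose, 29.3% fell), 45.9% in UT-7 (22.5% rose, 23.3% fell) and 40.5% in UCSD-AML1 (19.1% rose, 21.3% fell). Scaling by library totals alone turned the TF-1 split over all genes to 3001 rising and 5225 falling, beside 3901 and 4272 with TMM.

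Of 23 partners and cofactors, such as LDB1, the E proteins, the small MAF proteins and the deacetylase complexes, 6 rose and 9 fell in TF-1, 7 rose and 8 fell in UT-7, and 6 rose and 4 fell in UCSD-AML1, with medians of -0.01, -0.01 and 0.004 on the log2 scale. With library totals, 3 rose and 12 fell in TF-1, and 4 rose and 9 fell in UT-7. HDAC1, a deacetylase of the NuRD and CoREST complexes, fell in all 3 lines. It averaged 57.6 ± 3.796 CPM with cyclocreatine and 122.2 ± 4.20 CPM with vehicle in TF-1 (2.12-fold; edgeR adjusted p = 1.83e-22), 107.7 ± 3.12 CPM with cyclocreatine and 197.9 ± 3.53 CPM with vehicle in UT-7 (1.84-fold; 4.89e-20), and 227.7 ± 9.05 CPM with cyclocreatine and 306.1 ± 4.82 CPM with vehicle in UCSD-AML1 (1.34-fold; 9.65e-12). MAFF, a small MAF partner of NF-E2, fell 2.62-fold in TF-1 (edgeR adjusted p = 4.46e-13) and 1.54-fold in UT-7 (4.03e-05). SSBP2, which stabilises LDB1, rose 1.29-fold in TF-1, 1.36-fold in UT-7 and 1.28-fold in UCSD-AML1 (edgeR adjusted p from 1.02e-05 to 0.000362). CBFA2T2, of the ETO family of corepressors, rose in TF-1 and UT-7 by 1.27-fold and 1.41-fold, and LMO4, a relative of LMO2, rose 1.41-fold in UCSD-AML1 (edgeR adjusted p = 3.5e-10).

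Of 24 related transcription factors tested, 10 rose and 8 fell in TF-1, 5 rose and 9 fell in UT-7, and 10 rose and 6 fell in UCSD-AML1, with medians of -0.03, -0.01 and 0.05. With library totals, 8 rose and 12 fell in TF-1, so that more fell than rose, with a median of -0.11. Without the first TF-1 cyclocreatine library, whose spread enters the shared fit, 8 rose and 9 fell in UT-7. GFI1, the paralogue of GFI1B, rose in TF-1 and UT-7. It averaged 27.2 ± 1.27 CPM with cyclocreatine and 11.5 ± 1.28 CPM with vehicle in TF-1 (2.37-fold; edgeR adjusted p = 1.4e-16) and 113.5 ± 5.43 CPM with cyclocreatine and 57.0 ± 0.35 CPM with vehicle in UT-7 (1.99-fold; 6.9e-17). In UCSD-AML1 it was at 0.41 CPM with cyclocreatine and 0.34 CPM with vehicle. ERG, an ETS factor of stem cells and megakaryocytes, rose 1.94-fold in TF-1 (edgeR adjusted p = 3.35e-18) and 1.62-fold in UT-7 (5.2e-14). RUNX1, a core factor of megakaryocytes, fell 1.40-fold in TF-1, 1.43-fold in UT-7 and 1.42-fold in UCSD-AML1 (edgeR adjusted p = 5.41e-14, 8.41e-15 and 1.04e-14). MEIS1, a homeodomain factor of stem cells and progenitors, fell 2.01-fold in TF-1, from 4.51 CPM with vehicle to 2.26 CPM with cyclocreatine. In UT-7 it was at 0.05 CPM in both groups. It was not called in UCSD-AML1, at 193 CPM with cyclocreatine and 199.8 CPM with vehicle (edgeR adjusted p = 0.52). In UCSD-AML1, FLI1, an ETS factor of megakaryocytes, fell 1.30-fold (edgeR adjusted p = 1.19e-11) and GATA2, the GATA factor of progenitors, rose 1.18-fold (4.69e-08). GATA1 counts over GATA2 counts, a ratio chosen after the values were seen, averaged 0.035 with cyclocreatine and 0.052 with vehicle in UCSD-AML1, 0.215 with cyclocreatine and 0.241 with vehicle in TF-1, and 0.315 with cyclocreatine and 0.362 with vehicle in UT-7.

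Of the 42 erythroid genes, which serve haem synthesis, globins, the membrane skeleton and iron uptake, 16 rose and 22 fell in TF-1, 2 rose and 23 fell in UT-7, and 4 rose and 8 fell in UCSD-AML1. The medians were -0.17 in TF-1 and -0.24 in UT-7 on the log2 scale, beside -0.01 and 0 for all genes. With library totals 10 rose and 23 fell in TF-1, and without the first TF-1 cyclocreatine library 12 rose and 24 fell there, 4 rose and 27 fell in UT-7, and 8 rose and 8 fell in UCSD-AML1. Without UT-7 cyclocreatine replicate 3, 4 rose and 22 fell in UT-7. SLC4A1, the band 3 anion exchanger, fell in all 3 lines, by 3.04-fold in TF-1 (edgeR adjusted p = 1.77e-15), 2.59-fold in UT-7 (1.63e-07) and 1.71-fold in UCSD-AML1 (0.00063). SPTB, the erythroid beta spectrin, differed in direction between the lines. In UCSD-AML1 it rose 2.97-fold, from 4.11 CPM with vehicle to 12.2 CPM with cyclocreatine (edgeR adjusted p = 7.79e-17). In TF-1 and UT-7 it fell, by 1.725-fold and 1.425-fold (edgeR adjusted p = 3.69e-17 and 1.32e-12). TFRC, the transferrin receptor, averaged 2370 ± 245.6 CPM with cyclocreatine and 5292 ± 178.3 CPM with vehicle in TF-1 (2.23-fold; edgeR adjusted p = 4.02e-21). RHAG, the Rh-associated glycoprotein, rose 1.47-fold in TF-1 and fell 1.69-fold in UCSD-AML1 (edgeR adjusted p = 4.37e-17 and 4.11e-18). RHD, a Rh blood group antigen, fell 2.07-fold in TF-1, though its near copy RHCE may share reads with it. The summed level of the list ran from 9102 to 9419 CPM in cyclocreatine and 11780 to 12240 CPM in vehicle libraries of TF-1, from 7906 to 8344 CPM in cyclocreatine and 10170 to 10330 CPM in vehicle libraries of UT-7, and from 1573 to 1587 CPM in cyclocreatine and 1731 to 1808 CPM in vehicle libraries of UCSD-AML1. These sums turn on TFRC. Without it, a split chosen after the values were seen, the other 41 genes summed to 6674 to 7387 CPM with cyclocreatine and 6627 to 6721 CPM with vehicle in TF-1, and to 1207 to 1229 CPM with cyclocreatine and 1169 to 1220 CPM with vehicle in UCSD-AML1, overlapping in both. In UT-7 the 41 genes stayed apart and lower, at 5903 to 6404 CPM with cyclocreatine and 6724 to 6791 CPM with vehicle.

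Of 25 megakaryocyte and platelet genes tested, 4 rose and 15 fell in TF-1, 4 rose and 14 fell in UT-7, and 3 rose and 14 fell in UCSD-AML1, and the medians of -0.45, -0.36 and -0.33 lay below those of all genes in each line. The 3 that rose in UCSD-AML1 became 1 without its vehicle replicate 3. SELP, the platelet adhesion receptor P-selectin, fell 3.43-fold in TF-1 (edgeR adjusted p = 2.17e-13) and 3.10-fold in UCSD-AML1, where it averaged 67.0 ± 2.93 CPM with cyclocreatine and 207.5 ± 6.16 CPM with vehicle (1.26e-22). THBS1, the alpha granule protein thrombospondin 1, and ITGB3, the beta chain of the fibrinogen receptor, fell 3.12-fold and 2.42-fold in TF-1 (edgeR adjusted p = 1.45e-14 and 1.19e-18). PLEK, the platelet protein pleckstrin, fell 2.42-fold in UT-7 (edgeR adjusted p = 1.61e-21). GP1BA and GP6, receptors for von Willebrand factor and collagen, fell 2.57-fold and 2.93-fold in UCSD-AML1 (edgeR adjusted p = 8.83e-23 and 4.59e-19). ITGB3, PLEK, GP1BA and GP6 were each called lower in all 3 lines, and THBS1 also fell 2.17-fold in UT-7 (edgeR adjusted p = 3.06e-09). ITGA2B, the alpha chain that pairs with ITGB3, went against the list: it averaged 949.5 ± 41.7 CPM with cyclocreatine and 574.7 ± 11.3 CPM with vehicle in TF-1 (1.65-fold higher; edgeR adjusted p = 4.84e-21) and rose 1.22-fold in UT-7 (4.74e-10).

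**Figure D5:**
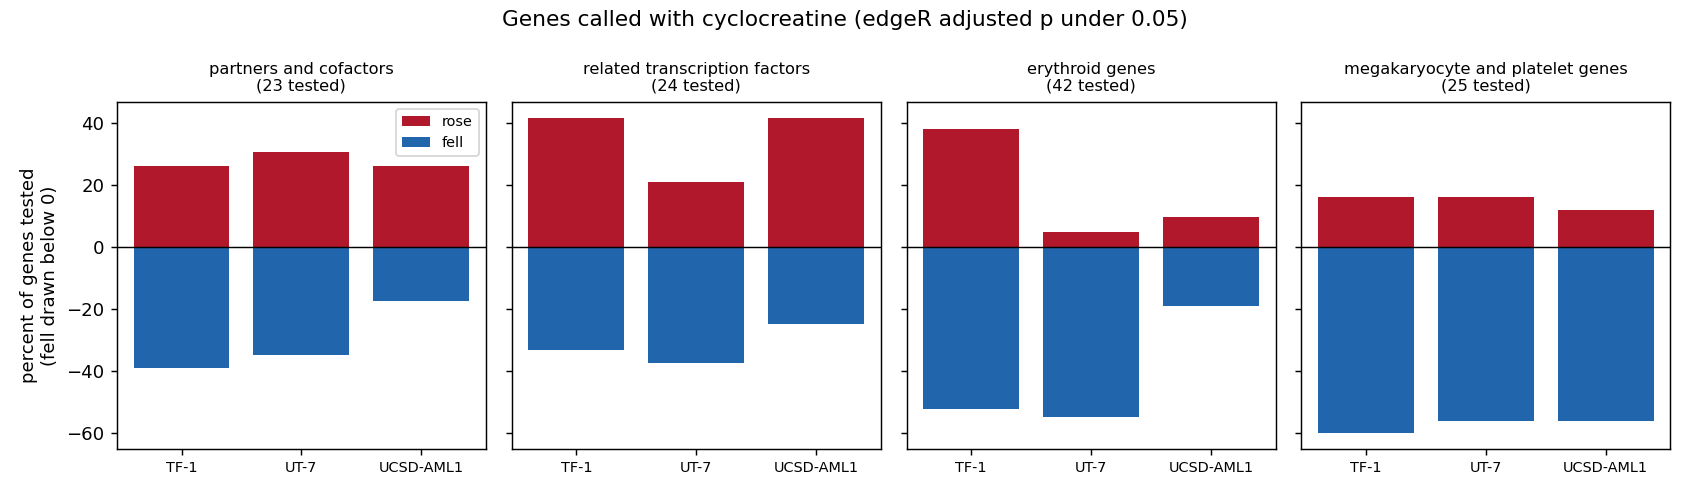
Share of the genes tested in each list that rose (above 0) or fell (below 0) with cyclocreatine at an edgeR adjusted p below 0.05, in percent, by line. The megakaryocyte and platelet list has 14 or 15 of 25 genes falling in each line, and the erythroid list has 16 rising for TF-1, 2 for UT-7 and 4 for UCSD-AML1.

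Of 5 other Schlafen genes, relatives of SLFN14, none was called by edgeR in TF-1 or UT-7, where 1 and 0 had an unadjusted p below 0.05, DESeq2 called 0 in both, and limma-voom called 1 for UT-7 and 0 for TF-1. With edgeR, 2 were called in UT-7 when that line was fitted alone, and 1 was called in TF-1 without vehicle replicate 3, without vehicle replicate 4 or without cyclocreatine replicate 4. In UCSD-AML1 3 of the 5 fell. SLFN5 averaged 3.48 ± 0.17 CPM with cyclocreatine and 6.64 ± 1.07 CPM with vehicle (1.91-fold; edgeR adjusted p = 0.000144), SLFN11 fell 1.11-fold (0.0112), and SLFN12L, at 1.25 CPM with cyclocreatine and 2.01 CPM with vehicle, fell 1.60-fold (0.043) but lost its call in the DESeq2 test (0.0796) and without any single UCSD-AML1 library other than vehicle replicate 2, with an adjusted p of up to 0.15.

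The genes nearest to HEMGN and SLFN14 in their pattern over the 6 groups were ranked by the root mean square distance between group means of log2 CPM, each centred on its own mean, over 10718 genes with at least 5 CPM. Nearest to HEMGN were C10orf128 (0.32), BHLHE40, a basic helix-loop-helix repressor (0.37), and TXK, a TEC family tyrosine kinase (0.38). Levels in this paragraph are the group means of log2 CPM turned back to CPM, not the mean CPM used above. C10orf128 stood at 19.4, 5.304 and 34.2 CPM in TF-1, UT-7 and UCSD-AML1 with cyclocreatine and 33.1, 12.3 and 40.5 CPM with vehicle. Nearest to SLFN14 were MTURN (0.53), SEMA6C, a semaphorin (0.61), and TIGD7 (0.65). MTURN stood at 26.2, 38.5 and 11.2 CPM with cyclocreatine and 75.3, 105.4 and 22.2 CPM with vehicle in the same order of lines. Among the members themselves, NFE2 and TAL1 were the closest pair (0.21), followed by TAL1 and LYL1 (0.41) and by ZFPM1 and GFI1B (0.43). The distance takes in levels of the lines as well as drug responses, so near genes can respond differently. In TF-1, UT-7 and UCSD-AML1 the log2 fold changes were -0.28, -0.26 and -0.05 for TAL1 and 0.56, -0.08 and 0.25 for LYL1. BHLHE40 was lower with cyclocreatine in TF-1 and UT-7 but stood at 93.4 CPM with cyclocreatine and 93.8 CPM with vehicle in UCSD-AML1.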

How the data were processed

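The deposited files hold counts per RefSeq gene symbol, 1 file a library, as whole numbers; the authors' counts were used as deposited. Per the submitters' processing notes, FastQC, TopHat2 and RSEM were used with GRCh37 (hg19); the sources used here do not give versions, roles or the strand setting. All 24 libraries, in 6 groups of 4 by line and treatment, entered 1 group-means fit in edgeR 4.0.16 (R 4.3.3) with TMM factors, the low-count filter at a minimum of 10 counts (total 15) and the robust quasi-likelihood test (18 residual degrees of freedom, median biological coefficient of variation 0.0578). P-values were adjusted by Benjamini-Hochberg over 14588 genes within each contrast, and a gene was called at an adjusted p below 0.05. The standard error of a log2 fold change was taken as its size over the square root of F. Cyclocreatine was compared with vehicle in each line, and vehicle libraries were compared between lines.

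The members and the gene lists were chosen with earlier results of these data known, and no list has a test of its own. Named list genes are the 3 called genes with the largest log2 fold change per list, line and direction, at a mean of at least 1 CPM; RUNX1 in TF-1 and the genes beyond this rule that are given for comparison were added after their values were seen, and some genes under the rule are not reported here. Totals of 12794998 to 21200662 counts limit low genes such as SLFN14 and BCL11A; floors and counts cover counting error only. The fit was run on simulated counts with few changed genes, in TF-1 cyclocreatine libraries only, and the same spread for every gene. That run checks the code, and it cannot show how the fit does on these data, where many more genes changed. Alternatives were DESeq2 size factors, library totals, no filter, the DESeq2 1.42.0 test, limma-voom (limma 3.58.1), a replicate block, fits of a line or of the vehicle libraries alone, and leaving out each library. Promoter windows are from RefSeq (GRCh38.p14), and exon lengths and overlaps from GENCODE release 29, on a newer build than the files, so no coordinates were transferred.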

Additional observations from a re-analysis of the deposited data

Results flagged for a closer look

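Among the 60 groups of 4 libraries (10 genes in 6 groups), 3 held a library whose gap to the nearest other exceeded Dixon's 95% critical value, and chance flags about 1 group in 20. NFE2 was at 184.7 CPM in TF-1 vehicle replicate 2, with the other 3 libraries at 176.6 to 177.6 CPM. TAL1 was at 265 CPM in UCSD-AML1 vehicle replicate 2, with the others at 256.1 to 257.3 CPM. BCL11A was at 64.91 CPM in UCSD-AML1 vehicle replicate 3, with the others at 56.37 to 57.69 CPM.

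For ZFPM1 all cyclocreatine libraries lay below vehicle in TF-1 (log2 fold change -0.5558) and in UT-7 (-0.6324) and above it in UCSD-AML1 (0.4506). For NFE2 they lay below vehicle in UT-7 (-0.2924) and above it in UCSD-AML1 (0.1082). These differences between lines were not tested, because the genes were chosen with the contrasts known.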

How the results depend on the processing

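The number of genes called, of list genes called over all lists, of members called between lines and of members lower with cyclocreatine stayed within 1.5 times the reported number under every alternative run. Over single libraries left out, genes called ran from 7785 to 8319 in TF-1, 6152 to 7368 in UT-7 and 5245 to 6617 in UCSD-AML1. Where that left an arm of 3 libraries, the fit shared its spread over all groups.

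Same-numbered libraries did not deviate together: 0 of 12 pairs had a correlation of deviations over 0.1 (range -0.048 to 0.072), and 2 of the 12 cyclocreatine libraries were closest to their own number, so the numbers were not taken to pair libraries. With a replicate block, 7882, 6418 and 5574 genes were called in TF-1, UT-7 and UCSD-AML1, and 89, 72 and 56 of the list genes, and 8, 10 and 10 members were called between TF-1 and UT-7, TF-1 and UCSD-AML1, and UT-7 and UCSD-AML1. The block ended the call of SLFN12L in UCSD-AML1 (adjusted p = 0.0688) and of no other named gene.

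The difference in LMO2 between TF-1 and UT-7 vehicle libraries, not called at 0.01 on the log2 scale, turned sign with library totals (-0.0645), with no filter (-0.0041), without TF-1 vehicle replicate 2 (-0.0189) and without UT-7 vehicle replicate 4 (-0.0049), and over all single libraries left out it ran from -0.0189 to 0.0325. GFI1B between the same lines was called with library totals (-0.15, adjusted p = 0.000848) and in the vehicle libraries alone (-0.09, 0.0327). With library totals the UT-7 libraries of LYL1 lay apart and lower, giving 8 members lower there, and NFE2 in TF-1 was at -0.04; the cause was not tested. Among rises in UCSD-AML1, ZFPM2 (reported adjusted p = 0.0428) lost its call without UT-7 vehicle replicate 3 and without any UCSD-AML1 library but vehicle replicate 2 (up to 0.147), and P2RX1 (0.0104) without vehicle replicate 3 (0.0665) or cyclocreatine replicate 1 (0.0592). SLFN12L also lost its call with no filter (0.118) and without any of 6 UT-7 libraries (0.0512 to 0.0552). Limits are the counts of low genes (15 to 29 a library for BCL11A in UT-7, 24 to 30 for SLFN14 in UCSD-AML1 cyclocreatine libraries), the unknown origin of the 4 libraries, and 1 dose and 1 time.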
